A study of Mus musculus with 6 samples.

Results

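The lysosomal genes described here are 31 genes of 3 kinds that were chosen by name, with earlier results of these data known. They encode subunits of the vacuolar proton pump, proteins of the lysosomal membrane, and enzymes and binding proteins of the lysosomal lumen. They were found in the deposited expression table by Ensembl identifier, and all 31 were present among its 55774 rows. The pump genes comprise 7 of the V0 sector and 8 of the V1 sector. The membrane group holds 5 genes and the luminal group holds 11. The luminal group was meant to hold hydrolases that do not cut proteins, but Tpp1 encodes a peptidase, and Psap and Npc2 encode an activator precursor and a lipid carrier rather than enzymes.

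The lysosome is the acidic compartment in which cells break down proteins, lipids, glycans and glycogen. Its acidity comes from the vacuolar H+-ATPase (V-ATPase), a rotary pump whose cytosolic V1 sector splits ATP and whose membrane-bound V0 sector moves protons into the lumen. Luminal hydrolases work at acidic pH, and most of them reach the lysosome through mannose-6-phosphate receptors. In preimplantation embryos the same pathway degrades maternal material and endocytosed cargo, and extracellular vesicles taken up by embryonic cells pass through endosomes and lysosomes.

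The libraries came from wild-type mouse blastocysts of ICR females aged 6 to 8 weeks, cultured for 75 hours in CZB medium at 5% oxygen with human oviductal extracellular vesicles (oEVs). The oEV-EMT group (3 libraries) received vesicles from the Fallopian tubes of women with endometriosis, and the oEV-ctrl group (3 libraries) received vesicles from women with another gynaecological condition, for which the labels and the study's methods give different names. Each library pooled 10 blastocysts, and no library of embryos cultured without vesicles was analysed here. The labels and the methods also name different starting stages for the cultured embryos. The sources used here do not say whether the 3 libraries of a group came from separate vesicle preparations, so the p-values measure the spread between libraries, which may be technical.

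Values were taken as FPKM from their sums (fragments per kilobase of transcript, scaled to the mapped fragments of the library). Summed FPKM ran from 1293175 to 1551567 per library. An unannotated entry took 15.3 to 19.0% of the sum in the oEV-EMT libraries and 19.7 to 31.5% in the oEV-ctrl libraries. Read totals were not used here, and the relative depth recovered from the smallest nonzero values was lowest in oEV-ctrl 1, with the deepest library, oEV-EMT 1, at 2.07 times that depth. oEV-ctrl 1, with the 31.5% share, held the lowest value of 15 of the 31 lysosomal genes, and oEV-EMT 1 held the highest value of 16. The part of depth and of that entry in the results below was not tested.

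The comparison of oEV-EMT with oEV-ctrl asked whether vesicles from women with endometriosis changed the expression of lysosomal genes in blastocysts. No lysosomal gene passed the thresholds of the study, an adjusted p no higher than 0.05 together with a log2 fold change of 1 or more in either direction (limma, Benjamini-Hochberg over 11924 genes). The same held for every tested gene (0% past both thresholds). The study itself reported differentially expressed genes at these thresholds, with DESeq2, which needs counts and could not be run on the deposited values. Of the 31 genes, 30 reached 1 FPKM in at least 3 libraries and were tested, and Lipa, the lysosomal acid lipase, did not. Lipa read 1.05, 0.283 and 0.405 FPKM in oEV-EMT 1, 2 and 3 and 0.286, 0.397 and 0.262 FPKM in oEV-ctrl 1, 2 and 3. The smallest adjusted p among the 30 tested genes was 0.118, for Atp6v0b.

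Short of the adjusted threshold, more lysosomal genes had higher than lower values in oEV-EMT as deposited. At an unadjusted p of at most 0.05, 7 of 30 were higher in oEV-EMT (23.3%) and 0 were lower, against 12.8% higher and 2.55% lower among all tested genes. In 12 of 30 (40.0%) the lowest oEV-EMT value exceeded the highest oEV-ctrl value, and in 0 the reverse held, against 18.1% and 4.34% of all tested genes. Because the list was chosen with earlier results of these data known, these shares are descriptions only. The 7 genes were Atp6v0b, Atp6ap1, Lamp1, Asah1, Hexa, Tpp1 and Npc2, and all of them belong to the 12 without overlap. The other 5 were Atp6v0a1, Atp6v1c1, Atp6v1d, Atp6v1e1 and Ppt1.

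These counts depended on the scaling between libraries, because the median log2 fold change of all tested genes was itself 0.17. The median of the 30 lysosomal genes was 0.34, which is 0.17 above that of all genes, and 22 of the 30 lay above the all-gene median. After median-of-ratios scaling, which brings the all-gene median to 0.02, only Atp6v0b was higher at an unadjusted p of at most 0.05 and 0 genes were lower, against 6.58% higher and 6.3% lower among all tested genes. The relative median then was 0.15. Genes without overlap then numbered 6 above (20.0%) and 1 below, Atp6v0a2 (3.33%), against 9.89% and 10.1% of all tested genes. After upper quartile scaling they numbered 4 above (13.3%) and 1 below, against 7.41% and 12.6%. Scaling annotated genes to a sum of 1000000 raised the counts instead. It gave 10 genes higher at an unadjusted p of at most 0.05 (33.3%, against 17.0% of all tested genes). It left 13 without overlap above (43.3%, against 23.2%) and 0 below.

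The counts also rested on single libraries. Without oEV-ctrl 1 only Atp6v0b was higher at an unadjusted p of at most 0.05 (3.33%, against 7.96% of all tested genes). Without oEV-EMT 1 the genes at that p were Atp6v0b, Atp6ap1 and Atp6v1c1, without oEV-EMT 2 they were Atp6v0b, Lamp1 and Asah1, and without oEV-ctrl 2 they were Atp6v0b, Atp6ap1 and Asah1. These sets of 3 genes are each 10.0% of the 30, against 13.4, 9.34 and 8.27% of all tested genes. Without oEV-ctrl 3, 5 genes were higher (16.7%, against 12.7%) and Atp6v0c was lower (3.33%, against 1.94%). Without oEV-EMT 3, 13 genes were higher (43.3%, against 14.0%). The share of lysosomal genes at that p thus lay below that of all genes after median-of-ratios scaling and without oEV-ctrl 1 or oEV-EMT 1, as it did after upper quartile scaling (3.33%, against 4.48%).

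**Figure D1:**
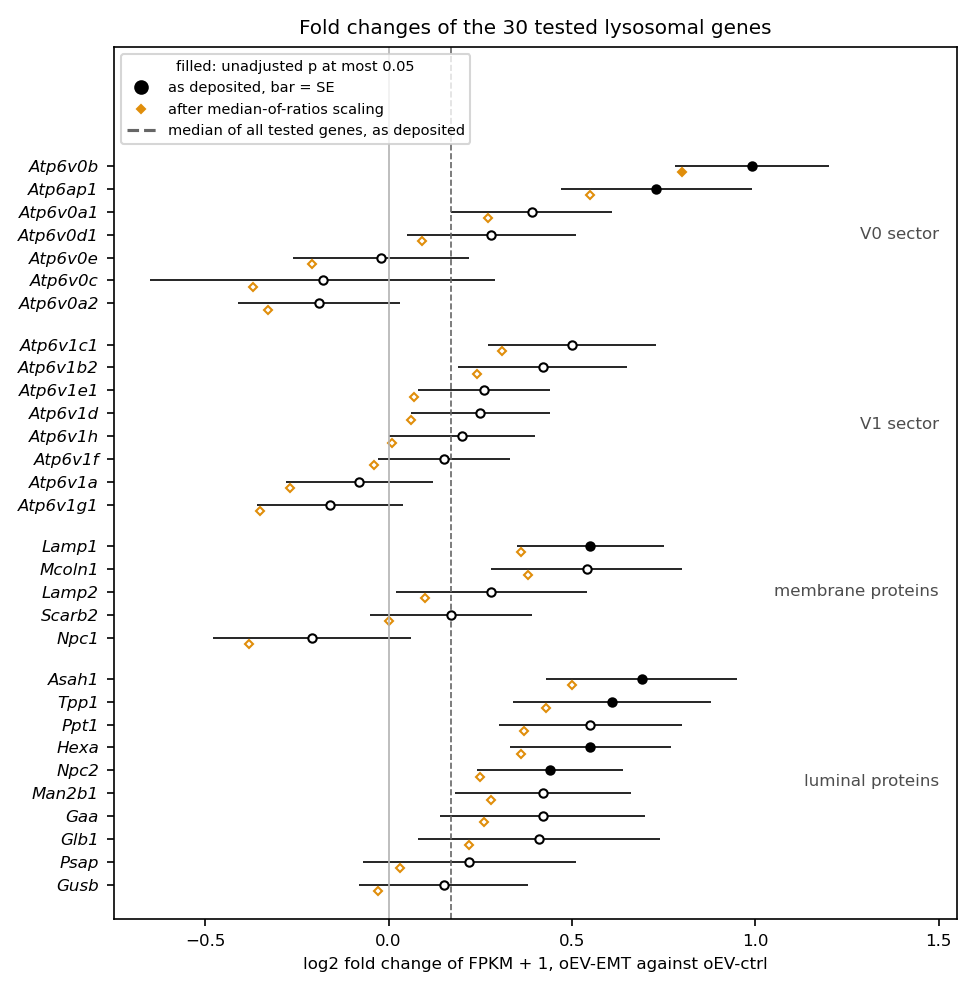
Log2 fold change of FPKM + 1 (x axis, oEV-EMT against oEV-ctrl) for the 30 tested lysosomal genes (y axis, grouped by role), as deposited (circles, bars are the standard error) and after median-of-ratios scaling (diamonds), filled where the unadjusted p was at most 0.05. Of the 30 circles, 7 are filled, and of the diamonds only that of Atp6v0b is filled, and 22 circles lie to the right of the dashed all-gene median of 0.17.

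The roles are given side by side, without a test between them, and their counts at that p stand beside 12.8% of all tested genes. For the luminal genes the median log2 fold change was 0.43 (10 tested, 4 or 40.0% at an unadjusted p of at most 0.05), and none of the 10 was negative as deposited. The V0 genes (7 tested, 2 or 28.6% at that p) and the membrane genes (5 tested, 1 or 20.0% at that p) each had a median of 0.28. The V1 genes had the lowest median, 0.22 (8 tested, 0 at that p), which is 0.05 above that of all genes. After median-of-ratios scaling 1 V0 gene and 0 genes of the other roles were at that p. Taken by library, relative to the oEV-ctrl mean and to all genes, the luminal median was 0.58, 0.34 and 0.05 in oEV-EMT 1, 2 and 3 and −0.03, 0.04 and 0.02 in oEV-ctrl 1, 2 and 3 on the log2 scale. oEV-EMT 3 therefore lay close to the control libraries for this group. In bulk samples, more cells of a type and more RNA per cell cannot be told apart.

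**Figure D2:**
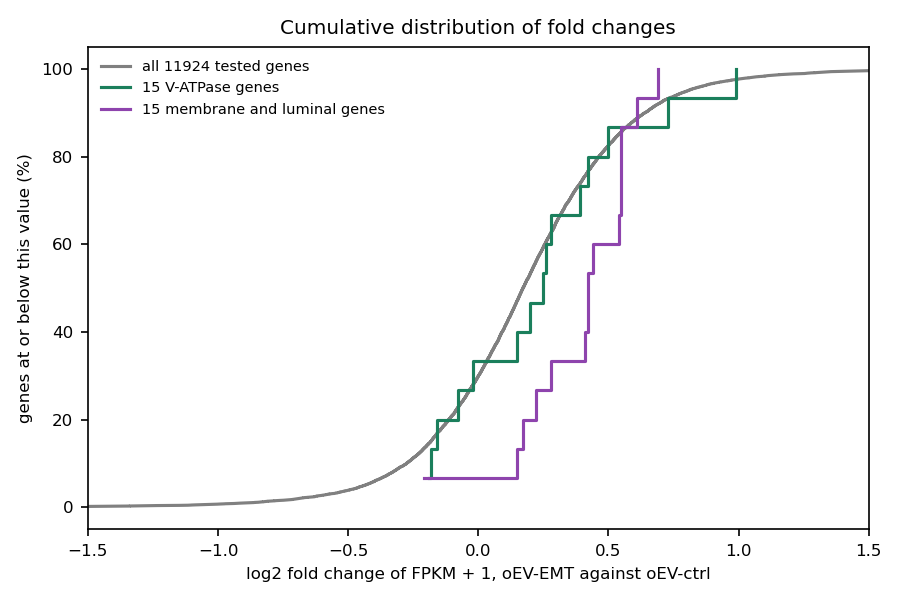
Share of genes (y axis, percent) at or below each log2 fold change of FPKM + 1 (x axis, oEV-EMT against oEV-ctrl) for all 11924 tested genes (grey), the 15 V-ATPase genes (green) and the 15 tested membrane and luminal genes (purple). The V-ATPase line follows that of all genes for most of its length, and the membrane and luminal line lies to its right over most of the range.

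Among the V0 genes, Atp6v0b, which encodes the proteolipid subunit c″ of the proton-carrying ring, differed most between the groups. Atp6v0b (chr4:117884326-117887333, minus strand, GRCm38) read 538, 439.9 and 446 FPKM in oEV-EMT 1, 2 and 3 and 205, 219 and 300.0 FPKM in oEV-ctrl 1, 2 and 3. The groups did not overlap, and the means were 475 ± 55.4 and 242 ± 51.1 FPKM (SD, n = 3 each). The log2 fold change of FPKM + 1 was 0.99 (SE 0.21), or 1.98-fold, with all 3 oEV-EMT libraries above the control mean and an adjusted p of 0.118 by limma. It was 0.80 after median-of-ratios scaling (unadjusted p = 0.00255, adjusted p = 0.199 by limma) and between 0.88 and 1.15 when any library was left out. Atp6v0b kept an unadjusted p of at most 0.05 in all 15 alternatives that were run. Gm12841 overlaps 11.8% of the exon bases of Atp6v0b on the opposite strand and stood at a mean of 0 FPKM.

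Atp6ap1, the accessory protein Ac45 that takes part in V0 assembly, was the other V0 gene at an unadjusted p of at most 0.05. It lies on chromosome X (chrX:74297097-74304721, plus strand, GRCm38). Its values were 24.4, 30.9 and 21.3 FPKM in oEV-EMT 1, 2 and 3 and 10.7, 19.1 and 16.0 FPKM in oEV-ctrl 1, 2 and 3. The groups did not overlap, and the log2 fold change was 0.73 (SE 0.26, adjusted p = 0.237 by limma). The most abundant V0 gene was Atp6v0e, a small membrane subunit of the pump, which read 541, 635 and 668 FPKM in oEV-EMT and 435, 773 and 715 FPKM in oEV-ctrl. Here the groups overlapped, with the lowest and the highest value both in oEV-ctrl libraries (log2 fold change −0.02, SE 0.24). Atp6v0d1, which links the ring to the rotor, and Atp6v0a2, an isoform of the proton-channel subunit a, also overlapped, with log2 fold changes of 0.28 and −0.19.

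Atp6v0c, the gene for the main proteolipid subunit c, had the highest coefficient of variation of the tested lysosomal genes in oEV-ctrl, 52.9%. It read 123, 75.5 and 87.0 FPKM in oEV-EMT 1, 2 and 3 and 156, 159.6 and 47.1 FPKM in oEV-ctrl 1, 2 and 3. oEV-ctrl 3 alone held the lowest value of the 6 libraries, and the log2 fold change was −0.18 (SE 0.47). Without oEV-ctrl 3 it was −0.76, and without oEV-ctrl 2 it was 0.11.

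A near-identical copy of this gene bears on these values. Atp6v0c-ps2 is annotated as a processed pseudogene (chr6:37806086-37806550, plus strand, GRCm38), and its 465 bases matched the 468-base coding sequence of Atp6v0c at 464 aligned positions (99.8%), read from the reference. The stretch around their only difference, at coding bases 81 to 140 of Atp6v0c (chr6:37806166-37806225 in the copy), is shown here because no other position of the aligned bases tells them apart. The differing base is in capitals.
Atp6v0c: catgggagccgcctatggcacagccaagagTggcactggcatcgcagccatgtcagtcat
Atp6v0c-ps2: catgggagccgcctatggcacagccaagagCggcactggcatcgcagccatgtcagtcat

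The copy was listed at higher FPKM than its parent gene in all 6 libraries. Atp6v0c-ps2 read 584, 333 and 362 FPKM in oEV-EMT 1, 2 and 3 and 181, 201 and 274 FPKM in oEV-ctrl 1, 2 and 3, so its groups did not overlap (log2 fold change 0.94, SE 0.26, adjusted p = 0.164 by limma). The share of the summed FPKM listed under Atp6v0c was 17.3, 18.5 and 19.4% in oEV-EMT 1, 2 and 3 and 46.3, 44.3 and 14.7% in oEV-ctrl 1, 2 and 3. oEV-ctrl 3 thus divided the pair like the oEV-EMT libraries did. The sum of both was 707, 408 and 449 FPKM in oEV-EMT and 337, 361 and 321 FPKM in oEV-ctrl, without overlap (log2 ratio of means 0.62). Weighted by transcript length, with 796 or 1183 bases for Atp6v0c, the sums overlapped and the log2 ratios were 0.47 and 0.34. The value listed for Atp6v0c alone is therefore uncertain in these libraries.

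**Figure D3:**
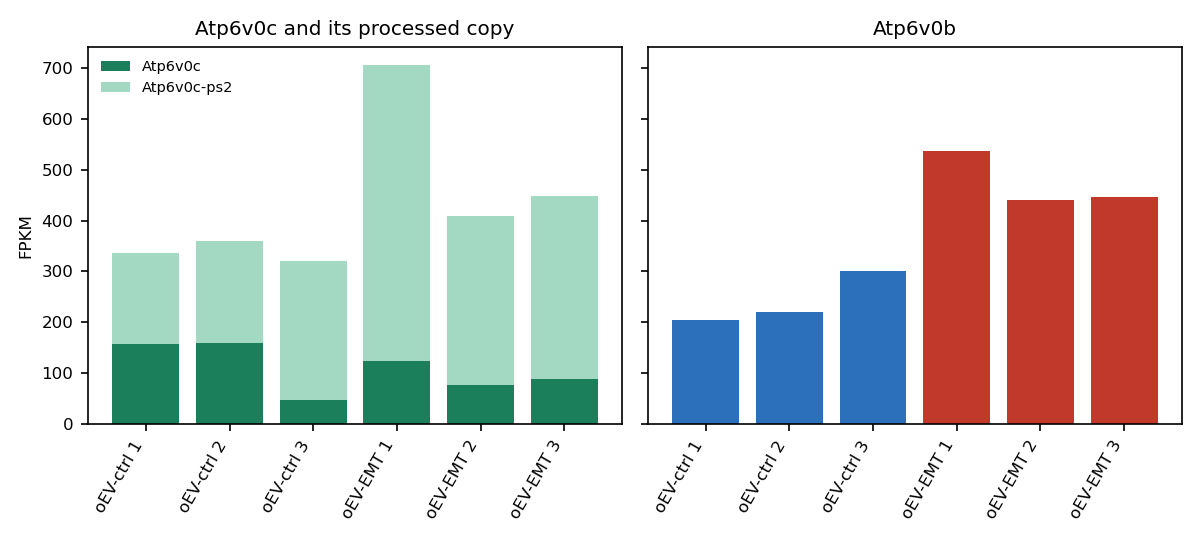
FPKM (y axis, from 0) in each library (x axis) of Atp6v0c stacked with its processed copy Atp6v0c-ps2 (left) and of Atp6v0b (right, blue for oEV-ctrl and red for oEV-EMT). The copy is the larger segment of every left bar, Atp6v0c holds 46.3 and 44.3% in oEV-ctrl 1 and 2 and at most 19.4% elsewhere, and all 3 red bars of Atp6v0b lie above the blue ones.

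The pump's subunit a has 4 isoforms, of which the listed genes include only Atp6v0a1 and Atp6v0a2. Most of the subunit a signal in these blastocysts came from Atp6v0a4, the isoform best known from kidney and inner ear. Atp6v0a4 held 79.1, 74.3 and 59.1% of the summed subunit a FPKM in oEV-EMT 1, 2 and 3 and 70.8, 76.5 and 72.8% in oEV-ctrl 1, 2 and 3. The groups overlapped (exact two-sided permutation test, p = 0.9, adjusted p = 1 over 6 families, where 3 against 3 allows no p below 0.1). Atp6v0a1 read 2.43, 2.2 and 3.15 FPKM in oEV-EMT and 2.12, 1.62 and 1.45 FPKM in oEV-ctrl. Its groups did not overlap, and its log2 fold change was 0.39 (SE 0.22, adjusted p = 0.405 by limma). In the other families with paralogues the listed isoform held nearly all of the signal, at least 99.2% in every library for subunits C, d, e, E and G. Atp6v1b1, the paralogue of Atp6v1b2, was listed at 0 in all 6 libraries. Exact p-values for these other families ran from 0.2 to 1.0, and all adjusted values were 1.

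**Figure D4:**
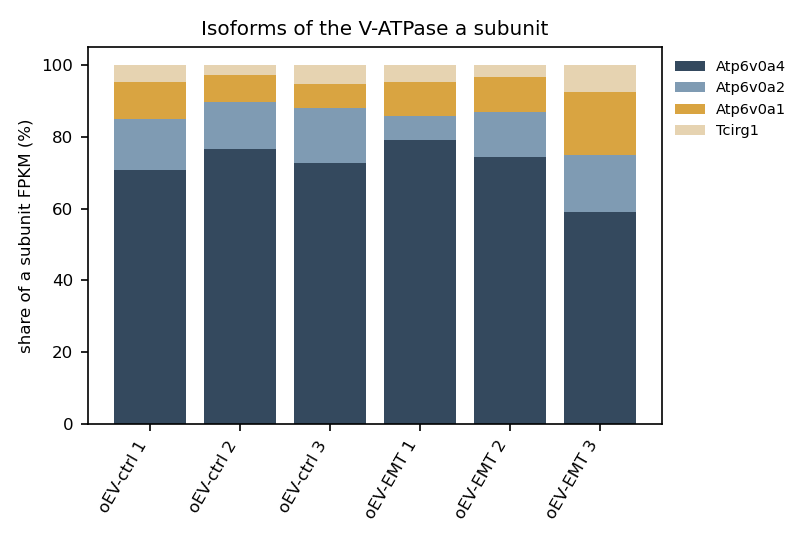
Share of the summed subunit a FPKM (y axis, percent) held by each of the 4 isoforms in each library (x axis). Atp6v0a4 is the tallest segment in all 6 libraries, between 59.1 and 79.1%, and Atp6v0a1 reaches its highest share, 17.6%, in oEV-EMT 3.

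The V1 genes were expressed at more even levels, and none reached an unadjusted p of 0.05. Their values ran from 41.5 FPKM, for Atp6v1a, to 498 FPKM, for Atp6v1f, and the adjusted p-values ran upward from 0.338. Atp6v1f, a subunit of the rotor, read 498, 489.5 and 453 FPKM in oEV-EMT and 380.3, 464 and 455 FPKM in oEV-ctrl. The groups overlapped, and oEV-ctrl 1 was the low library (log2 fold change 0.15, SE 0.18). Atp6v1e1, a subunit of the peripheral stalk, read 246, 241 and 237 FPKM in oEV-EMT and 174, 218 and 213 FPKM in oEV-ctrl. It did not overlap, yet the log2 fold change was only 0.26 (SE 0.18), and it was 0.16 without oEV-ctrl 1.

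The largest V1 difference was that of Atp6v1c1, subunit C, which regulates the joining of V1 with V0. It read 65.3, 67.5 and 99.9 FPKM in oEV-EMT 1, 2 and 3 and 45.1, 55.7 and 61.1 FPKM in oEV-ctrl 1, 2 and 3. The log2 fold change was 0.50 (SE 0.23, adjusted p = 0.338 by limma), with the highest value in oEV-EMT 3. Atp6v1d, a rotor subunit, read 82.5, 63.4 and 72.6 FPKM in oEV-EMT and 62.7, 57.5 and 61.8 FPKM in oEV-ctrl, a gap of less than 1 FPKM between the nearest libraries of the groups. Of the subunits that form the ATP-splitting head, Atp6v1b2 had a log2 fold change of 0.42 and Atp6v1a one of −0.08, and both overlapped between groups. The stalk subunit Atp6v1g1 (−0.16) and the regulatory subunit Atp6v1h (0.20) overlapped as well.

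Lamp1, a heavily glycosylated protein that lines the lysosomal membrane, was the membrane gene of highest FPKM and the only one of the 5 whose groups did not overlap. Lamp1 (chr8:13159161-13175338, plus strand, GRCm38) read 494, 420.1 and 355 FPKM in oEV-EMT 1, 2 and 3 and 265, 275 and 325 FPKM in oEV-ctrl 1, 2 and 3. The log2 fold change was 0.55 (SE 0.20, adjusted p = 0.240 by limma), and after median-of-ratios scaling it was 0.36 (unadjusted p = 0.0836 by limma). Its exons overlap those of Grtp1 on the opposite strand over 9.31% of their bases, and the sources used here do not state whether strand was used in counting. Lamp2, its paralogue with a role in chaperone-mediated autophagy, read 31.1, 28.9 and 37.6 FPKM in oEV-EMT and 18.2, 33.1 and 30.4 FPKM in oEV-ctrl. Only oEV-ctrl 1 stood apart, and the log2 fold change was 0.28 (SE 0.26), or 0.03 without that library. Mcoln1, the lysosomal calcium channel TRPML1, had a log2 fold change of 0.54 (SE 0.26, unadjusted p = 0.0615 by limma), and its groups overlapped. Scarb2, the carrier of glucocerebrosidase, had 0.17, and Npc1, which exports cholesterol from the lysosome, had −0.21.

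Of the 11 luminal genes, 4 were higher in oEV-EMT at an unadjusted p of at most 0.05, and these act on different substrates. Asah1, the acid ceramidase (chr8:41340197-41374773, minus strand), read 59.2, 52.3 and 50.3 FPKM in oEV-EMT 1, 2 and 3 and 22.7, 45.0 and 35.0 FPKM in oEV-ctrl 1, 2 and 3. Its log2 fold change was 0.69 (SE 0.26, adjusted p = 0.253 by limma), and it was 0.43 without oEV-ctrl 1, the lowest library. Hexa, the α subunit of the hexosaminidase that degrades gangliosides (chr9:59539540-59565109, plus strand), read 77.7, 62.4 and 50.1 FPKM in oEV-EMT and 42.2, 39.8 and 45.5 FPKM in oEV-ctrl. The groups did not overlap, with oEV-EMT 3 nearest to the controls (log2 fold change 0.55, SE 0.22, adjusted p = 0.275 by limma). Tmem202 overlaps 12.8% of the exon bases of Hexa on the opposite strand and stood at a mean of less than 1 FPKM.

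Tpp1, the tripeptidyl peptidase (chr7:105744811-105752235, minus strand), and Npc2, the soluble cholesterol carrier that works with Npc1 (chr12:84754562-84773152, minus strand), were the other luminal genes at that p. Tpp1 read 37.5, 25.6 and 18.4 FPKM in oEV-EMT 1, 2 and 3 and 15.2, 16.9 and 18.1 FPKM in oEV-ctrl 1, 2 and 3, so that oEV-EMT 3 and oEV-ctrl 3 were nearly equal. The log2 fold change was 0.61 (SE 0.27, adjusted p = 0.309 by limma) and 0.36 without oEV-EMT 1. Npc2 read 215, 166 and 162 FPKM in oEV-EMT and 133, 122 and 142 FPKM in oEV-ctrl. It had the smallest difference of the 7 genes, with a log2 fold change of 0.44 (SE 0.20, adjusted p = 0.321 by limma).

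The remaining luminal genes did not reach that p. Ppt1, a thioesterase that removes palmitate from proteins, read 42.7, 25.7 and 23.0 FPKM in oEV-EMT and 19.3, 19.3 and 20.4 FPKM in oEV-ctrl. Its groups did not overlap, and the log2 fold change was 0.55 (SE 0.25, unadjusted p = 0.0533 by limma), or 0.29 without oEV-EMT 1. Psap, the precursor of the saposins that help sphingolipid hydrolases, was the luminal gene of highest FPKM and read 364, 165 and 179.7 FPKM in oEV-EMT and 195, 205 and 169.6 FPKM in oEV-ctrl. oEV-EMT 1 alone stood apart, and the log2 fold change of 0.22 (SE 0.29) became −0.14 without it. The glycan and glycogen hydrolases Gaa (0.42), Glb1 (0.41), Man2b1 (0.42) and Gusb (0.15) had positive log2 fold changes with overlapping groups. The sign of Gusb turned after median-of-ratios scaling, to −0.03.

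The spread between libraries was wider in oEV-EMT for several luminal genes. The coefficient of variation of FPKM was 47.0% in oEV-EMT against 9.58% in oEV-ctrl for Psap, 35.6 against 8.70% for Tpp1 and 35.1 against 3.25% for Ppt1. The opposite held for Asah1, with 8.69% in oEV-EMT against 32.6% in oEV-ctrl. With 3 libraries per group these spreads were not tested against each other.

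**Figure D5:**
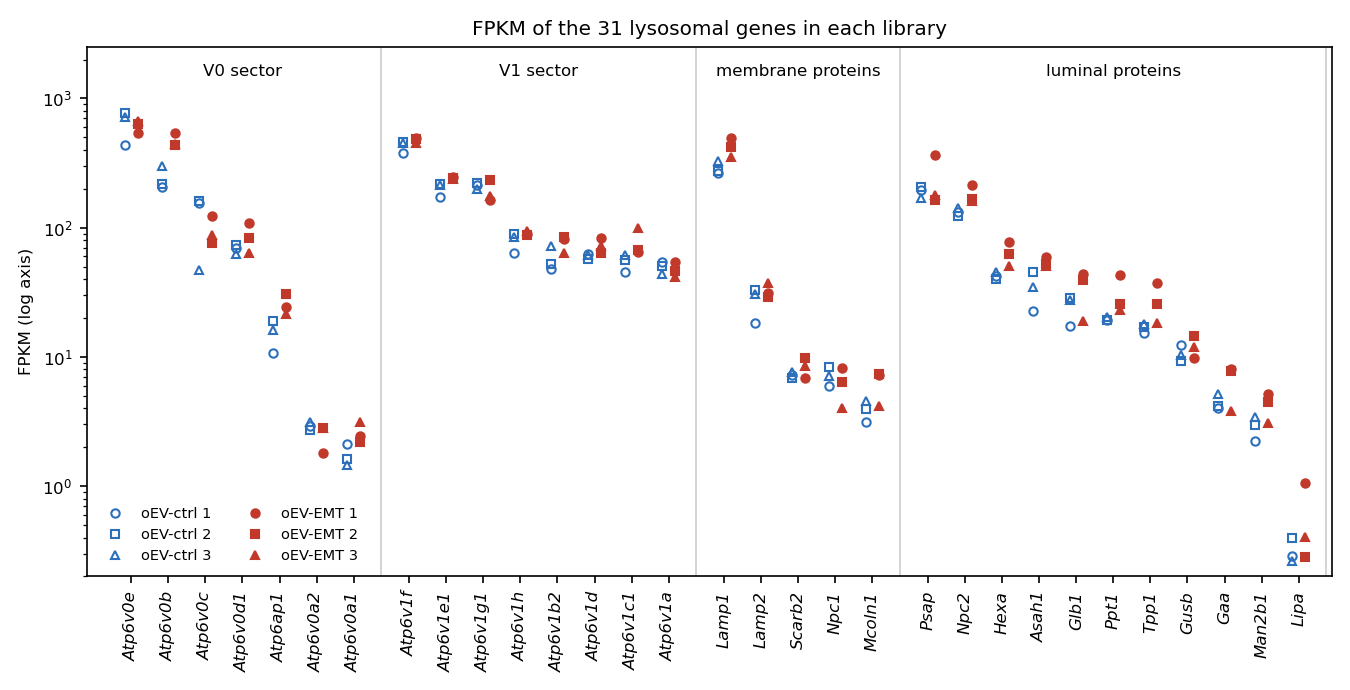
FPKM on a log axis (y axis) of the 31 lysosomal genes (x axis, ordered by mean within each role) in the 3 oEV-ctrl libraries (open blue) and the 3 oEV-EMT libraries (filled red). Levels span from 0.262 FPKM for Lipa to 773 FPKM for Atp6v0e, and 12 genes, among them the abundant Atp6v0b, Lamp1, Atp6v1e1 and Npc2, have all red points above the blue ones.

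Many lysosomal genes carry the palindrome CACGTG near their start, the core of the element bound by the transcription factors TFEB and TFE3. Promoter windows of 250 bases before to 50 bases after the transcription start were taken from RefSeq (GRCm38.p6), and 24 of the 31 genes had a window. CACGTG stood in 8 of the 24 (33.3%), against 8.09% of the 27025 genes in the table. The longer TCACGTG, which contains it and was searched on both strands, stood in the same 8 genes (33.3%), against 4.29% of those 27025 genes. Many of the 27025 were not among the tested genes. No share over tested genes, or over genes of like expression, was taken. The upstream windows of Atp6v0b and Lamp1 are shown because both carry several copies and both genes were higher in oEV-EMT at an unadjusted p of at most 0.05. Each ends at the base before the start site and reads along the gene, with CACGTG in capitals, from chr4:117887330-117887579 (minus strand) for Atp6v0b and chr8:13158911-13159160 (plus strand) for Lamp1.
Atp6v0b: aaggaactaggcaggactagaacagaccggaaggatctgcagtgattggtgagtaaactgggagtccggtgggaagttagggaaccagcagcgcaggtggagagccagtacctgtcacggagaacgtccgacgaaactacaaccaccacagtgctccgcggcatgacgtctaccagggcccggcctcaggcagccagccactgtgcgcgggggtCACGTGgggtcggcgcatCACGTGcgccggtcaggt
Lamp1: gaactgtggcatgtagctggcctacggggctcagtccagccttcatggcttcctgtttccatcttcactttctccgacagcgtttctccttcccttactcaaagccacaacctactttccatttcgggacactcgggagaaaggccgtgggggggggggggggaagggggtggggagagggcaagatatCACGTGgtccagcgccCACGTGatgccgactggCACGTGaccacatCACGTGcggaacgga

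The Atp6v0b window holds 2 copies and that of Lamp1 holds 4. The other 6 genes are shown by a 28-base stretch around a copy, to show the palindrome with its flanking bases, of which the t directly before it is common to all 6 stretches. The stretches lie at chr8:105566051-105566078 (minus strand) for Atp6v0d1, chr17:26676388-26676415 (plus) for Atp6v0e, chr16:44139374-44139401 (minus) for Atp6v1a, chr11:119267812-119267839 (plus) for Gaa, chr9:114401019-114401046 (plus) for Glb1 and chr8:3500437-3500464 (plus) for Mcoln1, which has a second copy.
Atp6v0d1: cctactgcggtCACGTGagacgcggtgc
Atp6v0e: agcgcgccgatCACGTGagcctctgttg
Atp6v1a: tttttttaaatCACGTGataggcttaac
Gaa: ttctgtgcgatCACGTGtttgactctga
Glb1: tgcttctgagtCACGTGgcctacagagg
Mcoln1: gtcgcgcttgtCACGTGttcagttcagg

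Genes with and without the palindrome had overlapping ranges of differences. The 8 genes with CACGTG centred on a log2 fold change of 0.42 (median), from −0.08 for Atp6v1a to 0.99 for Atp6v0b, and 2 of them were at an unadjusted p of at most 0.05. The 16 genes with a window that lacks it, of which 15 were tested, had a median of 0.28 and 4 at that p. The 7 genes without a window were Atp6v0a2, Atp6v1b2, Atp6v1c1, Atp6v1g1, Atp6v1h, Npc1 and Asah1, with a median of 0.20 and 1 at that p. These medians and counts are descriptions, without a test between the groups of genes. They stand beside the all-gene median of 0.17 and the 12.8% of all tested genes that were higher at that p.

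The surrounding lysosomal pathway was followed in 5 further lists, beside 12.8% higher and 2.55% lower among all tested genes. Of 34 other hydrolases and activators, 26 were tested and 4 were higher at an unadjusted p of at most 0.05 (15.4%), with a median log2 fold change 0.16 above that of all genes. Manba, the β-mannosidase (log2 fold change 1.14, SE 0.38, or 0.67 without oEV-EMT 1), and Galns, a sulfatase of keratan sulfate (0.70, SE 0.23), had the smallest p-values, each with an adjusted p of 0.220 by limma. Of 26 other membrane proteins, 17 were tested and 3 were higher (17.6%), with the same relative median of 0.16. Cd68 (0.90, SE 0.32) and Laptm4a (0.53, SE 0.21), both residents of late endosomes and lysosomes, had the smallest p-values of that list. Neither list had a gene that was lower at that p. After median-of-ratios scaling, beside 6.58% higher and 6.3% lower among all tested genes, 2 and 1 genes of these lists were higher and again 0 were lower.

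The other 3 lists had relative medians near that of all genes. Of 18 further V-ATPase subunits and assembly factors, 11 were tested and 2 were higher (18.2%), with a relative median of 0.00. These were Rogdi, a factor related to a yeast assembly protein of the pump (0.65, SE 0.19), and Rnasek, a small pump-associated membrane protein (0.58, SE 0.22). Of 10 genes of mannose-6-phosphate sorting, 9 were tested, with M6pr, the smaller receptor, higher (0.77, SE 0.27), Gga3, an adaptor for receptor sorting, lower (−0.83, SE 0.36, or −0.38 without oEV-EMT 3) and a relative median of −0.09. Of 16 regulators and subunits of the Ragulator complex, which tethers nutrient sensing to the lysosome, 14 were tested, with 3 higher (21.4%), 1 lower (7.14%) and a relative median of 0.03. Lamtor4 read 147, 135 and 155 FPKM in oEV-EMT and 73.9, 79.4 and 88.8 FPKM in oEV-ctrl (log2 fold change 0.85, SE 0.19, adjusted p = 0.118 by limma), whereas Lamtor3 of the same complex was −0.69 (SE 0.29) and Tfec, a relative of TFEB, was 1.27 (SE 0.35). Tfeb itself did not reach that p (0.47, SE 0.37). The balance of these counts turned with the scaling: after median-of-ratios scaling the further V-ATPase list had 1 higher and 2 lower, and the regulators had 2 higher and 3 lower, while the sorting genes had 1 of each as before.

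The blastocyst label was checked against 17 lineage markers, and all of them were detected and tested. Summed trophectoderm markers ran from 3123 to 4734 FPKM in oEV-EMT and from 3075 to 4826 FPKM in oEV-ctrl. Of these 7, Elf5 (log2 fold change 0.67) was higher at an unadjusted p of at most 0.05 (14.3%, against 12.8% of all tested genes). Another 4 had negative log2 fold changes, down to −0.39 for Eomes. Summed epiblast markers ran from 101 to 131 FPKM in oEV-EMT and from 53.9 to 98.2 FPKM in oEV-ctrl, without overlap. At that p 2 of 5 were higher (40.0%, against 12.8%), Nanog (log2 fold change 1.11, or 0.71 without oEV-ctrl 1) and Pou5f1 (0.97), whereas Sox2 was at −0.32. Summed primitive endoderm markers ran from 30.3 to 46.9 FPKM and from 30.6 to 36.1 FPKM. At that p 2 of 5 were higher (40.0%, against 12.8%), Gata4 (0.82) and Sox17 (0.95, or 0.63 without oEV-EMT 1), whereas Gata6 was at −0.19. After median-of-ratios scaling Nanog, Pou5f1 and Gata4 stayed higher at that p, Elf5 and Sox17 did not, and Eomes was lower. Among all tested genes 6.58% were then higher and 6.3% lower. The part of lineage proportions in the differences of the lysosomal genes was not tested. Markers of leukocytes (5), of cumulus and granulosa cells (6) and of oviduct epithelium (3) stayed below 1 FPKM in every library, with highest values of 0.537, 0.344 and 0.296 FPKM, and 1, 3 and 1 of them were listed at 0 throughout.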

How the data were processed

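Poly(A)-selected RNA of 6 blastocyst libraries was sequenced by the authors. Per the labels, reads were placed on mm10 and assembled with StringTie, whose version, like the aligner, is not given in the sources used here. The authors deposited 1 value per gene and library. The methods speak of TPM, but the deposited columns sum to different totals, all above 1000000, as FPKM and not TPM can, so they were treated as FPKM. Of 55487 Ensembl identifiers, 55141 matched GENCODE M21. Genes of at least 1 FPKM in at least 3 libraries (11924) were compared on log2(FPKM + 1) with limma 3.58.1 in R 4.3.3 (trended and robust variance, Benjamini-Hochberg adjustment), in the place of DESeq2, which the authors ran and which needs counts. The pseudocount understates changes of low genes. The thresholds of the study were an adjusted p of 0.05 and a log2 fold change of 1 in size. Unadjusted p of at most 0.05 was used for counts set beside all genes. Depth is known only in relative terms. Stretches of 50 bases were compared between transcripts to find shared sequence, and scripts were tested on simulated data. The genes and lists were chosen with earlier results of these data known. Values by library were given for members at unadjusted p of at most 0.05, for the 2 of highest mean FPKM per role and for those without overlap, and up to 2 genes per direction of each further list were named. The Atp6v0c copy, Tfeb, Lipa, the coefficients of variation and the shares in the closing section were chosen after values were seen. Alternatives comprised 3 other scalings, a pseudocount of 0.1, 2 other filters, limma without trend and robust settings, library weights, a replicate block and leaving out each of the 6 libraries.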

Additional observations from a re-analysis of the deposited data

How the results depend on the processing

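Over the 15 alternatives, the 30 fold changes kept their direction and side of an unadjusted p of 0.05 in 376 of 450 cases. Members higher at that p numbered 7 as deposited (23.3%, against 12.8% of all tested genes). They numbered 1 after median-of-ratios or upper quartile scaling (3.33%, against 6.58 and 4.48%). After scaling annotated genes to a sum of 1000000 they numbered 10 (33.3%, against 17.0%). Without a filter on low values they numbered 5 of 31 (16.1%, against 5.51%). That background held 31842 genes rather than 11924, and the pseudocount understates changes of the low genes so added. With the replicate block the members higher at that p numbered 4 (13.3%, against 11.2%). With a library left out they numbered 1 to 13 (3.33 to 43.3%, against 7.96 to 14.0%). Members lower numbered 0, or 0 to 1 with a library left out (against 1.64 to 4.84% of all tested genes). Members without overlap numbered 12 above and 0 below (against 18.1 and 4.34% of all tested genes). After median-of-ratios scaling they numbered 6 and 1 (20.0 and 3.33%, against 9.89 and 10.1%). After upper quartile scaling they numbered 4 and 1 (13.3 and 3.33%, against 7.41 and 12.6%). After scaling annotated genes to a sum of 1000000 they numbered 13 and 0 (against 23.2 and 2.53%). With a library left out, 12 to 19 lay above (40.0 to 63.3%, against 21.9 to 30.6% of all tested genes). In the same fits 0 to 1 lay below (against 5.87 to 12.5%). The relative median of 0.17 was 0.26 without a filter on low values, where it was taken against the 31842 genes of that wider background. Genes past both thresholds numbered 0, 4 with at least 1 FPKM in all 6 libraries, 104 with library weights, 21 with the block and 0 to 16 with a library left out, and the cause was not tested. The labels give both groups the numbers 1 to 3. Same-numbered libraries deviated from their group means with correlations of 0.119, −0.0442 and 0.0388, and only oEV-EMT 1 correlated best with its own number. With 3 libraries per group these correlations cannot decide whether same-numbered libraries were handled together. The numbers were not taken as pairs in the main fit, and the block was run as an alternative. Calls of single genes held in 15 of 15 alternatives for Atp6v0b, 11 for Atp6ap1 and Asah1, 10 for Lamp1, 7 for Hexa, 6 for Tpp1 and 3 for Npc2.

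Signs turned only for genes that had no unadjusted p of at most 0.05. These were Atp6v1f (−0.04) and Gusb (−0.03) after median-of-ratios scaling, Atp6v1d (−0.01), Atp6v1f (−0.11), Atp6v1h (−0.07), Scarb2 (−0.06), Gusb (−0.10) and Psap (−0.04) after upper quartile scaling, Atp6v0e (0.09) and Atp6v1a (0.03) after scaling annotated genes to a sum of 1000000, and Atp6v1g1 (0.03) and Psap (−0.03) with library weights. With a library left out, the ranges that crossed 0 were −0.28 to 0.13 for Atp6v0e, −0.76 to 0.11 for Atp6v0c, −0.40 to 0.03 for Npc1 and −0.14 to 0.43 for Psap. The difference in the Atp6v0a4 share (−2.54 percentage points) ran from −6.69 to 3.34, that of Atp6v1c1 from −0.253 to 0.119 and that of Atp6v0e from −0.0142 to 0.00832. The palindrome count of 8 was the same in both forms. With 3 libraries per group and no read totals, differences below the spread between libraries were not detectable.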

Other observations

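Shares within the pump genes do not depend on the scaling between libraries. This view was chosen after values were seen and has no test. Atp6v0b held 20.6, 17.0 and 17.6% of the FPKM summed over the 15 V-ATPase genes in oEV-EMT 1, 2 and 3 and 10.7, 8.93 and 12.8% in oEV-ctrl 1, 2 and 3. Atp6ap1 (0.93, 1.20 and 0.84% against 0.554, 0.777 and 0.684%) and Atp6v1e1 (9.38, 9.33 and 9.36% against 9.05, 8.87 and 9.11%) also did not overlap. Among the 16 membrane and luminal genes, only Npc1 did not overlap, with 0.578, 0.614 and 0.434% in oEV-EMT and 0.777, 1.01 and 0.833% in oEV-ctrl, so it took the smaller share in oEV-EMT. As deposited, the FPKM of Npc1 overlapped (log2 fold change −0.21, unadjusted p = 0.452 by limma), and a share also moves with the other genes of its sum. These shares were taken within the listed genes, so no share over all tested genes stands beside them. Lamp1 overlapped on this scale, with 35.0, 40.6 and 38.2% against 34.8, 33.5 and 38.1%.

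Factors that help V1 join V0 did not share a direction. Dmxl1 and Dmxl2, the large rabconnectin subunits, had oEV-EMT values that all lay below those of oEV-ctrl, as did 4.34% of all tested genes. Dmxl2 read 3.27, 3.30 and 2.10 FPKM in oEV-EMT and 4.50, 4.69 and 4.04 FPKM in oEV-ctrl (log2 fold change −0.49, SE 0.22, adjusted p = 0.331 by limma, and −0.64 with an adjusted p of 0.271 after median-of-ratios scaling). Dmxl1 read 2.01, 1.27 and 1.28 FPKM against 2.13, 2.58 and 2.05 FPKM (log2 fold change −0.38, SE 0.21, adjusted p = 0.417). Wdr7, the further rabconnectin subunit, overlapped (log2 fold change −0.06, SE 0.23). Rogdi, named above, lay on the other side, at 144, 141 and 121 FPKM in oEV-EMT and 83.6, 91.6 and 81.6 FPKM in oEV-ctrl (log2 fold change 0.65, SE 0.19, adjusted p = 0.174). These genes were singled out after their values were seen.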
